A study of Triticum aestivum with 4 samples.

Results

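The regions described here are the TaCCA1-7D peaks on the group 4 chromosomes of bread wheat, with the far end of 4A left out. Members were all peaks on 4B and 4D and the peaks on 4A that start below 600 Mb, a rule that uses position alone. They number 58775 of the 467343 peaks in the list (12.6%), with 19977 on 4A, 22539 on 4B and 16259 on 4D. The other 18 named chromosomes hold 396473 peaks and serve as the comparison. The 4882 peaks on 4A beyond the boundary and the 7213 peaks on unplaced scaffolds were left out of both sets.

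The experiment was DAP-seq, in which a purified transcription factor is mixed with sheared naked DNA and the fragments it holds are sequenced. The bait was TaCCA1-7D fused to maltose-binding protein, and the DNA came from leaves of 2-week-old seedlings of the cultivar Fielder, grown under 16 h of light at 22 °C and 8 h of dark at 19 °C. TaCCA1-7D DAP-seq was run as 2 libraries, beside 2 libraries of input DNA from the same kind of leaf. A single peak list exists for all of them, so no value per library and no replicate error can be given. DNA is stripped of chromatin in this assay, so a peak marks DNA that the fusion protein held in vitro and not occupancy in a leaf cell.

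CCA1 is a MYB-related transcription factor of the plant circadian clock, which in Arabidopsis accumulates around dawn and represses evening genes through the evening element, a short A- and T-rich site. Bread wheat is a hexaploid whose A, B and D subgenomes each carry a copy of every chromosome group, and such copies are called homoeologues. Chromosome 4A is strongly rearranged: it carries an inversion around its centromere, and its distal long arm holds segments translocated from 5A and 7B. The boundary at 600 Mb sets much of that distal arm apart, but the inversion remains within the part described.

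The core of the bound site can be seen in the probes that were designed for binding assays with this protein. They are shown because they carry the AATATC core with and without mutation, and none of them comes from group 4. DAP1-R and its mutated form DAP1-M_R come from the promoter of TraesCS1D02G226100 on 1D, and DAP3-R comes from that of TraesCS2B02G491700 on 2B. Capitals mark AATATC in the unmutated probes and the replaced bases in the mutated one, each read 5′ to 3′.
DAP1-R: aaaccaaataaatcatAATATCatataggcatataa
DAP1-M_R: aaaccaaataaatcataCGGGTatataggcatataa
DAP3-R: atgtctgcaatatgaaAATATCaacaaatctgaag
No sequence of the group 4 peaks is given, because the genome of the build used for the peaks (Ensembl 1.0) was not used here. All positions below are in that build, and the genes beside them were not analysed here.

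Most group 4 peaks were narrow and shallow, as were those on the other chromosomes. Their median width was 484 bp, with quartiles at 330 and 662 bp and a range of 176 to 2065 bp. The median fold enrichment, which is the tag pileup at the summit plus 1 over the local background plus 1, was 6.17, with quartiles at 5.55 and 7.31 and a highest value of 30.4. Worked back from the deposited values, the median pileup was 12 tags (quartiles 10 and 15), and 92.4% of the peaks had fewer than 20 tags at the summit. The background lay at its lowest value, 0.621 tags, in 21.8% of them. A fold enrichment therefore rests on few tags at nearly every member, and the value of a single weak peak carries a wide counting error. The 18 other chromosomes gave nearly the same values, with a median width of 483 bp and a median fold enrichment of 6.18. Of their peaks, 92.0% had fewer than 20 tags at the summit and 22.0% lay at the lowest background.

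Strong peaks, taken as a fold enrichment above 10, numbered 1615 on group 4 (2.75%), against 2.9% of the peaks on the 18 other chromosomes. An FDR below 1e-10 was reached by 11375 members (19.4%), against 19.7% outside. Peaks of at least 1000 bp numbered 2251 (3.83%), against 3.78% outside. All of these shares lay near the background of the other chromosomes.

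Width and strength went together up to a point. A fold enrichment above 10 was found in 0.836% of the members under 300 bp, in 3.65% of those from 500 to 700 bp and in 4.40% from 700 to 1000 bp. Among the members of at least 1000 bp it was 2.75%, from 62 peaks. The share at the lowest background moved the other way, from 39.8% of the narrowest class to 0.311% of the widest. The other chromosomes gave 0.911% in the narrowest class, 4.59% from 700 to 1000 bp and 3.43% in the widest, so the same shape was present there.

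The strongest member lies at 4D:6630664-6631384, with a fold enrichment of 30.4, a pileup of 145 tags and a background of 3.80 tags (1 is added to both in the ratio). The next on that chromosome, 4D:198417226-198417506, had 26.1 from 78 tags, and 4D:172695084-172695365 had 26.1 from 48 tags. These 3 differ in pileup far more than in fold enrichment, since the background under them ranged from 0.880 to 3.80 tags. On 4B the highest values were 29.3 at 4B:543359381-543359794 (99 tags), 24.4 at 4B:660431062-660431430 (54 tags) and 22.5 at 4B:454101689-454101995 (54 tags). The 4A peaks were lower at each rank, with 26.0 at 4A:397967103-397967371 (53 tags), 21.6 at 4A:525763825-525764369 (43 tags) and 20.2 at 4A:214509908-214510294 (43 tags). The exact 95% Poisson interval of 53 tags runs from 39.7 to 69.3 and that of 145 tags from 122 to 171, which covers counting error only.

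The widest peaks were not the strongest. The widest member, 4D:21804331-21806395, spans 2065 bp with a fold enrichment of 6.76, and its counterparts are 4B:454599916-454601686 (1771 bp, 5.74) and 4A:198405861-198407459 (1599 bp, 8.25). Over the members of each chromosome, the rank correlation of width and fold enrichment was 0.303 on 4A, 0.288 on 4B and 0.307 on 4D, given as a description, since peaks of one list share their libraries and their background.

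Peak density was close to uniform among the homoeologues. There were 33.3 peaks per Mb on 4A (exact 95% Poisson interval 32.8 to 33.8, over 600 Mb), 33.5 on 4B (33.0 to 33.9, over 673.5 Mb up to the last peak) and 31.9 on 4D (31.4 to 32.4, over 509.8 Mb). The mean was 32.9 ± 0.864 on group 4 and 32.6 ± 0.857 on the 18 other chromosomes (SD over chromosomes of a single list, which is no replicate error). 4B was the densest chromosome of its subgenome, above a range of 31.3 to 33.1 on the other 6, while 4A and 4D lay inside the ranges of theirs. Peaks covered 1.71% of the length of 4A, 1.76% of 4B and 1.65% of 4D.

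Each group 4 chromosome was set against the other 6 of its subgenome, and the mean of the 3 differences was compared with every choice of 1 chromosome a subgenome. Density was higher on group 4 by 0.235 peaks per Mb, which did not pass (exact two-sided permutation test, p = 0.580, adjusted p = 0.880 over 5 differences). The sign was not shared, with -0.15 on 4A, 1.27 on 4B and -0.41 on 4D. Without 4B, the difference was -0.283 peaks per Mb. The smallest p that this exact test allows is 0.00292, and chromosomes of one list are not replicates, so it describes the list only.

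The other planned differences did not pass either. Median width was 476 bp on 4A, 491 bp on 4B and 482 bp on 4D, and group 4 exceeded the other chromosomes by 0.444 bp (exact permutation p = 0.845, adjusted p = 0.880). The median distance between neighbouring summits was 21082.5 bp on 4A, 20532.5 bp on 4B and 21451.5 bp on 4D, a difference of -35.1 bp (exact permutation p = 0.880, adjusted p = 0.880). Median fold enrichment was 6.17 on 4A, 6.20 on 4B and 6.17 on 4D, a difference of -0.00532 (exact permutation p = 0.612, adjusted p = 0.880). The value of 6.17 is shared by all 7 A chromosomes to 3 digits, because pileups are whole numbers and many backgrounds sit at the lowest value.

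Of the 5 planned differences between group 4 and the other chromosomes, the share of strong peaks had the smallest p, which did not pass. It was 2.56% on 4A (95% Wilson interval 2.35 to 2.79%), 2.76% on 4B (2.55 to 2.98%) and 2.96% on 4D (2.71 to 3.23%). 4A and 4B each had the lowest share of their subgenome, where the other 6 ranged from 2.73 to 2.94% on A and from 2.86 to 3.30% on B. 4D had the second highest of its own, where the others ranged from 2.65 to 2.98%. The mean difference was -0.125 percentage points (exact permutation p = 0.233, adjusted p = 0.880). A p that misses the threshold does not show that the chromosomes are alike.

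The boundary on 4A bears on that value. With the whole of 4A included, its share of strong peaks was 2.90%, inside the range of the other A chromosomes, and the mean difference shrank to -0.0116 points. With the outer 10% at each end of every chromosome left out, it was -0.00636 points. The difference was also smaller without 4A (-0.0478 points) and without 4B (-0.0365 points). The remaining settings gave larger differences. It was -0.292 points without 4D (exact permutation p = 0.0204, the smallest that 49 choices allow, adjusted p = 0.102). With strong peaks taken as a fold enrichment above 8 it was -0.417 points (exact permutation p = 0.0466, adjusted p = 0.233), and among peaks with an FDR under 1e-10 it was -0.328 points (exact permutation p = 0.478, adjusted p = 0.630). The sign was negative in each, and none passed after adjustment. The rule removes one chromosome end from 4A and from no other chromosome, so its comparison with complete chromosomes is uneven.

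**Figure D1:**
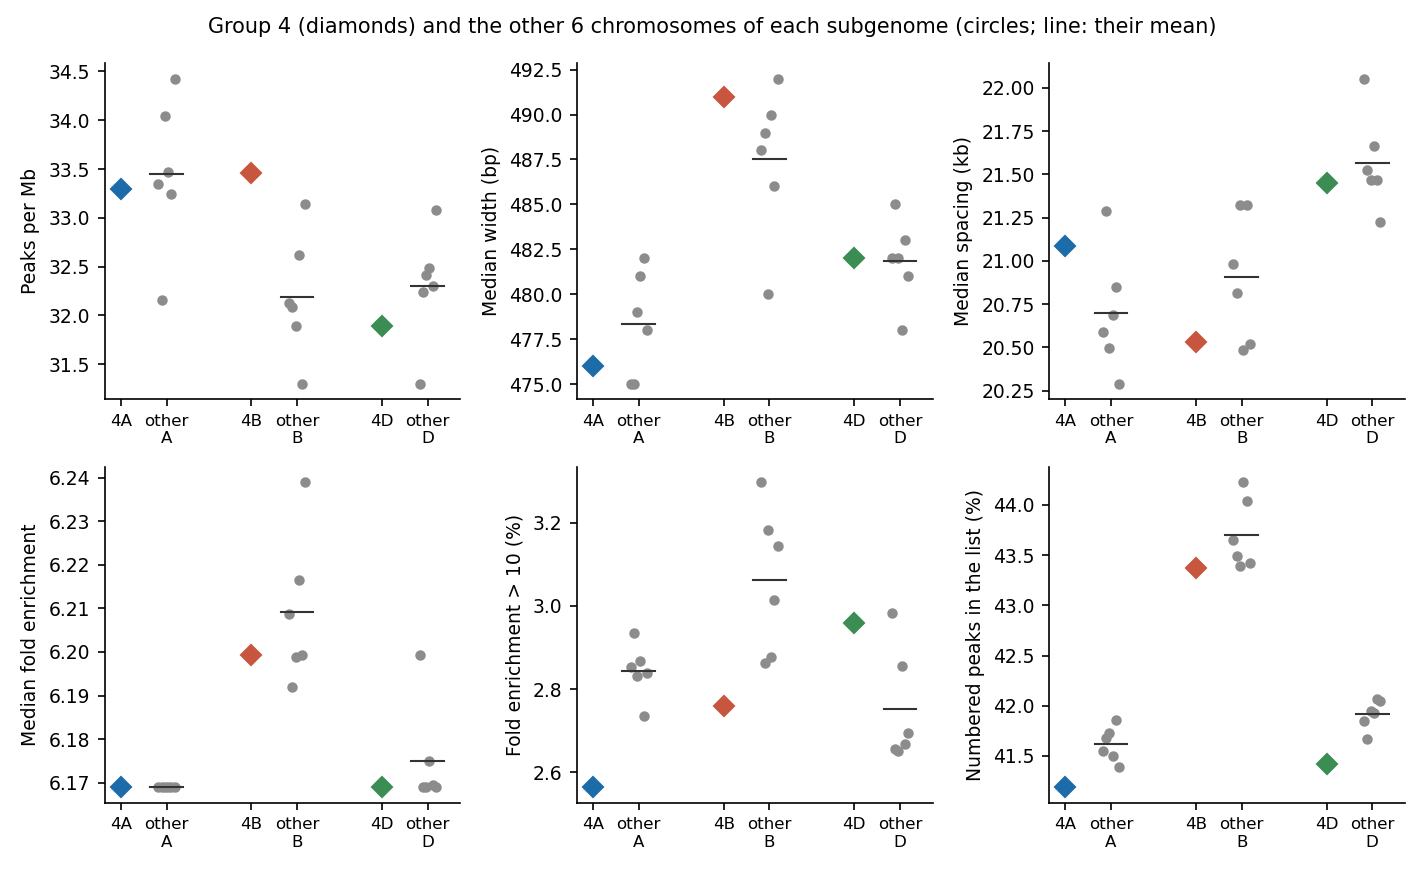
Each panel plots one measure (y axis, units on the label) for 4A, 4B and 4D (diamonds) beside the other 6 chromosomes of their subgenome (circles, with a line at their mean); the y axes do not start at 0. 4B is the densest B chromosome, and 4A and 4B have the lowest share of strong peaks within their subgenomes. The share of numbered peaks in the list is lowest on 4A, 4B and 4D within theirs, by 43.37 against 43.39% on 4B. 4A is measured up to the boundary, and the whole of it is not lowest in either share.

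Along the chromosomes, peaks were counted in full bins of 10 Mb. The 60 bins of 4A held 205 to 385 peaks (median 336.5), the 67 bins of 4B held 251 to 412 (median 341) and the 50 bins of 4D held 272 to 357 (median 313.5). Most bins were alike, with 84.7% of the group 4 bins at 300 to 370 peaks, against 76.0% of the 1206 bins outside. Bins under 270 peaks numbered 5 of 177 (2.82%) on group 4, against 86 of 1206 (7.13%) outside. These limits on bin counts were not planned. The 4A bins beyond the boundary are not among the 177, and the sparsest bin of the whole of 4A held 191 peaks.

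Up to the boundary, 4A had a single deep dip. Its bin from 260 to 270 Mb held 205 peaks and the next one 269, while the bin before held 345 and the bin from 280 to 290 Mb held 308. In the sparsest bin the median width was 476 bp and the median fold enrichment 6.17, the same as for the whole of the 4A members to 3 digits. Its median spacing was 26673 bp, against 21082.5 bp for the 4A members. The longest spacing of the 4A members, 466.877 kb, also falls in this bin, between the summits at 265165156 and 265632033. The densest 4A bin lies at 150 to 160 Mb, with 385 peaks.

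On 4B the sparse bins were scattered. They lie at 230 to 240 Mb (251 peaks), 60 to 70 Mb (252) and 0 to 10 Mb (265). The first of these holds a spacing of 852.977 kb and the second one of 686860 bp, so each contains a long stretch without any listed peak. In the bins at 60 to 70 Mb and 0 to 10 Mb the median width was 422 and 435 bp, below the 491 bp of the whole chromosome. The densest bin of all group 4, with 412 peaks, is the last full bin of 4B at 660 to 670 Mb, where 4.61% of the peaks were strong.

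4D had the narrowest range of bin counts. No bin of 4D held fewer than 272 peaks (160 to 170 Mb) or more than 357 (10 to 20 Mb). Its first bin held 293 peaks and both the strongest member and the longest spacing of the chromosome, 544.025 kb between the summits at 2072510 and 2616535. The longest spacing of 4B, 922.992 kb, lies between the summits at 352341344 and 353264336.

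**Figure D2:**
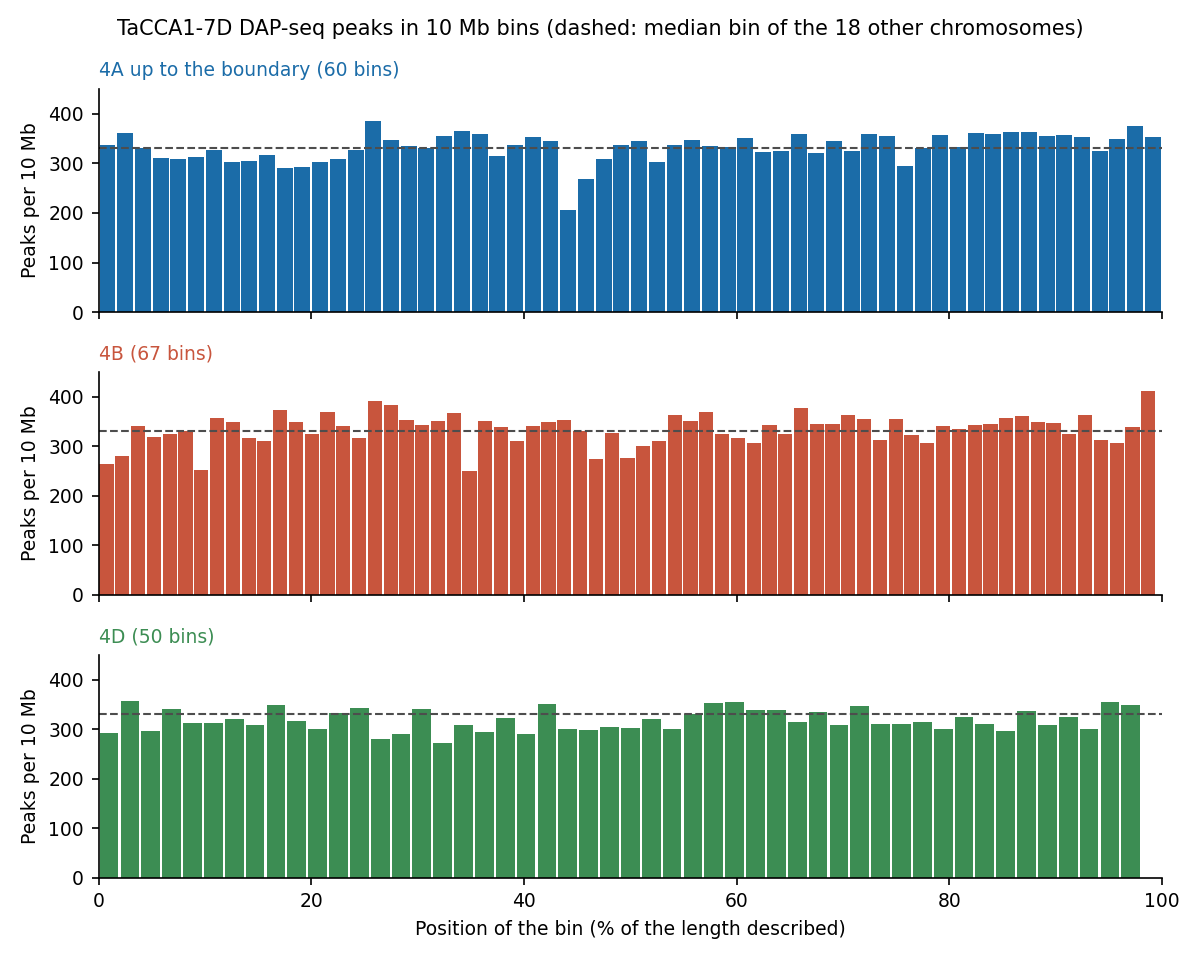
Peaks per full 10 Mb bin (y axis) along 4A up to the boundary, 4B and 4D (x axis, position as % of the length described); the dashed line is the median bin of the 18 other chromosomes, 331 peaks. Bars stay near that line except for the dip to 205 peaks on 4A and scattered low bins on 4B, and 4D has no bin under 272.

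Strong peaks varied more between bins than density did, as small counts do. Their share ran from 1.19 to 4.56% on 4A, from 0.875 to 4.99% on 4B and from 0.952 to 5.67% on 4D. Over the 1206 bins of the other chromosomes, a much larger set, it ran from 0.585 to 12.3%. The highest share on 4D, at 270 to 280 Mb, came from 17 of 300 peaks, and the lowest on 4B, at 550 to 560 Mb, from 3 peaks. The variance of the strong counts over their mean was 0.892 on 4A, 1.37 on 4B and 0.967 on 4D, where counts scattered at random would give about 1. On the 18 other chromosomes this ratio ran from 0.944 to 1.91, with a mean of 1.36. The rank correlation of the number of peaks in a bin with the share of strong ones was 0.0951 on 4A, 0.0994 on 4B and -0.26 on 4D, given as a description over 60, 67 and 50 bins that share their libraries.

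Median fold enrichment hardly moved between bins. It lay between 6.08 and 6.37 on 4A, between 6.15 and 6.51 on 4B and between 6.08 and 6.43 on 4D. The highest bins were 480 to 490 Mb on 4A, 10 to 20 Mb on 4B and 260 to 270 Mb on 4D. The lowest were 200 to 210 Mb on 4A, 410 to 420 Mb on 4B and 390 to 400 Mb on 4D.

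**Figure D3:**
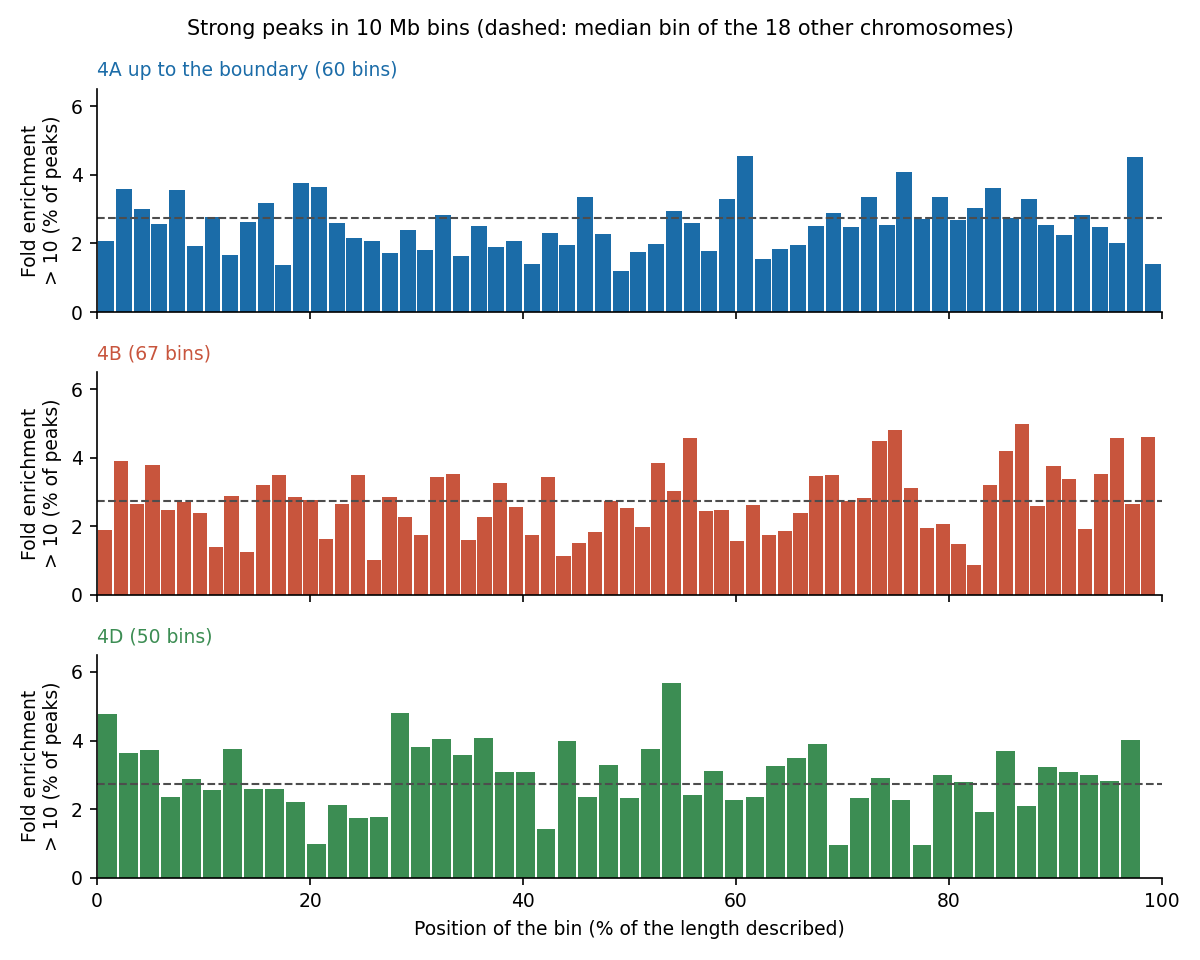
Share of peaks with a fold enrichment above 10 (y axis, % of the peaks in a full 10 Mb bin) along 4A up to the boundary, 4B and 4D (x axis, position as % of the length described); the dashed line is the median bin of the 18 other chromosomes, 2.75%. Bins scatter on both sides of the line on all 3 homoeologues, between 0.875 and 5.67%.

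Around the 4A boundary the bins held similar numbers of peaks but unlike shares of strong ones. The last bin inside, 590 to 600 Mb, held 354 peaks with 1.41% strong, and the first bin outside held 346 with 4.62% strong. The bin from 580 to 590 Mb, also inside, had 4.53%, so neighbouring bins inside the boundary also lay far apart. Beyond the boundary as a whole, 4.30% of the peaks were strong. The last member, 4A:599894753-599895343, had a fold enrichment of 8.32, and the first peak outside, 4A:600596806-600596995, had 6.79.

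The likeness of the density profiles depended on how finely the chromosomes were divided and on the kind of correlation. With each chromosome divided into 50 equal shares, Pearson's correlation of the counts was 0.119 between 4A and 4B, 0.0880 between 4A and 4D and 0.120 between 4B and 4D. Turning 4A round end for end gave -0.15 with 4B and 0.02 with 4D. These are descriptions over shares of chromosomes from a single list, and the mean of the 3 was 0.109. With 20 shares the correlation was 0.367 between 4A and 4B, 0.0581 between 4A and 4D and 0.158 between 4B and 4D, with a mean of 0.195. At 20 shares 4A turned round gave -0.0578 with 4B and 0.0784 with 4D. Spearman's correlation, with 4A not turned, went from 0.160 at 50 shares to 0.358 at 20 between 4A and 4B. It went from 0.113 to -0.164 between 4A and 4D and from 0.164 to 0.212 between 4B and 4D. Equal shares do not align homoeologous genes, since 4A is inverted in part and cut at the boundary.

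Close neighbours were a small class. Summits under 2000 bp apart made up 2402 of the 58772 spacings on group 4 (4.09%), against 4.03% outside. They formed 2338 pairs and 32 groups of 3, which held 8.12% of the group 4 peaks, against 8.01% outside. The largest group held 3 peaks on group 4 and 4 peaks on the other chromosomes, a much larger set. Spacings of 2 to 5 kb were scarce, with 1820, against 5889 of 5 to 8 kb. The share per kb of distance was 0.861% at 3 to 4 kb and 3.54% at 7 to 8 kb on group 4, against 0.874% and 3.52% outside. These shares lay near those of the other chromosomes.

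**Figure D4:**
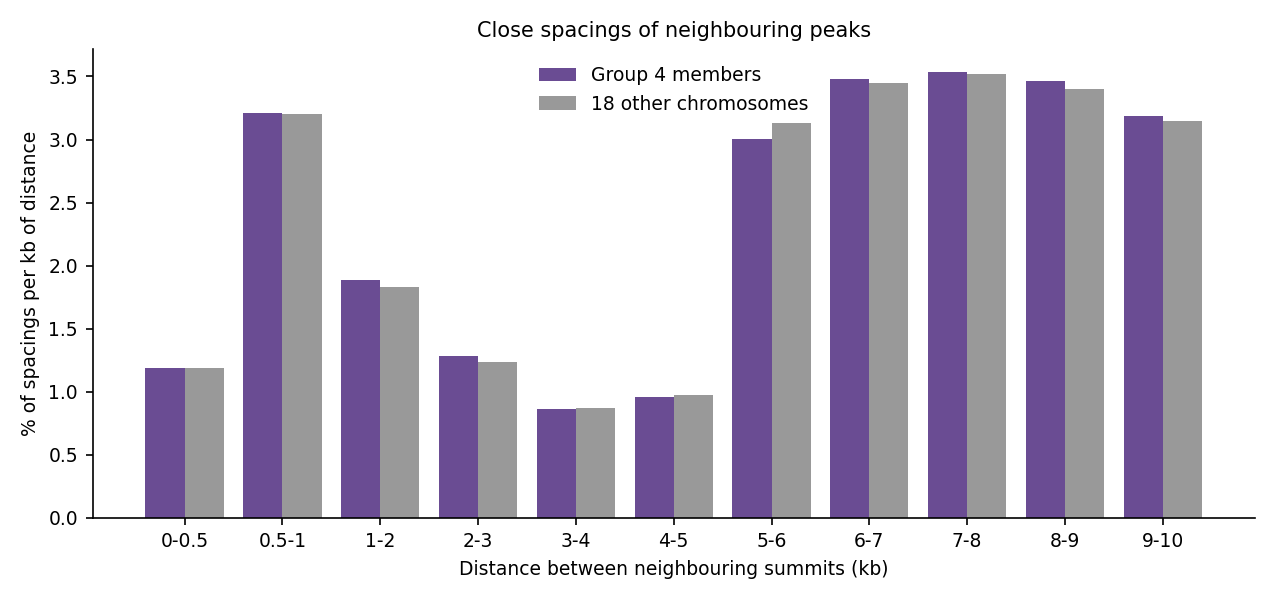
Share of all spacings per kb of distance (y axis, %) by the distance between neighbouring summits (x axis, kb, up to 10 kb), for the group 4 members (left bar of each pair) and the 18 other chromosomes (right bar). Both sets have a first maximum at 0.5 to 1 kb, a low from 3 to 5 kb and a step up at 5 kb, at nearly equal heights.

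Long stretches without peaks were counted per chromosome, without scaling to its length. Spacings above 200 kb numbered 23 on 4A, 61 on 4B and 35 on 4D. The other 6 chromosomes of each subgenome had 48 to 78 on A, 86 to 146 on B and 28 to 57 on D. The whole of 4A had 56, inside the range of the other A chromosomes, so the low count on 4A depends on where it is cut. The longest spacing was 467 kb on 4A and 923 kb on 4B, below all others of their subgenomes, and 544 kb on 4D, the second shortest. The variance of bin counts over their mean, a measure of unevenness, was 2.56 on 4A, 2.86 on 4B and 1.44 on 4D, and 4B and 4D had the lowest of their subgenomes.

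These measures were picked after 81 quantities per chromosome had been computed, so their p-values do not cover that search and they are not findings about group 4. The longest spacing differed by -424587 bp and unevenness by -1.60 (exact permutation p = 0.0321 and 0.0525, adjusted p = 0.128 and 0.140 over 8 differences). Neither passed after adjustment. With the whole of 4A its longest spacing was 749 kb and its unevenness 3.94, so both values for 4A depend on where it is cut.

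A further quantity picked in this way was the share of the peak caller's numbered peaks that the list retains. It was 41.2% on 4A, 43.4% on 4B and 41.4% on 4D, the lowest of 7 in each subgenome. On 4B this was a near tie, 43.37% against 43.39% for the next lowest. The whole of 4A had 41.8%, inside the range of 41.4 to 41.9% on the other A chromosomes. On D the other 6 ranged from 41.7 to 42.1%. The mean difference was -0.421 percentage points (exact permutation p = 0.00583, adjusted p = 0.0466 over 8 differences). It passed in that setting alone. With the whole of 4A the difference was -0.224 points and with the chromosome ends left out it was -0.0495, and neither passed (adjusted p = 0.544 and 1.00 in the same exact permutation test). The share assumes that every number was assigned once.

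**Figure D5:**
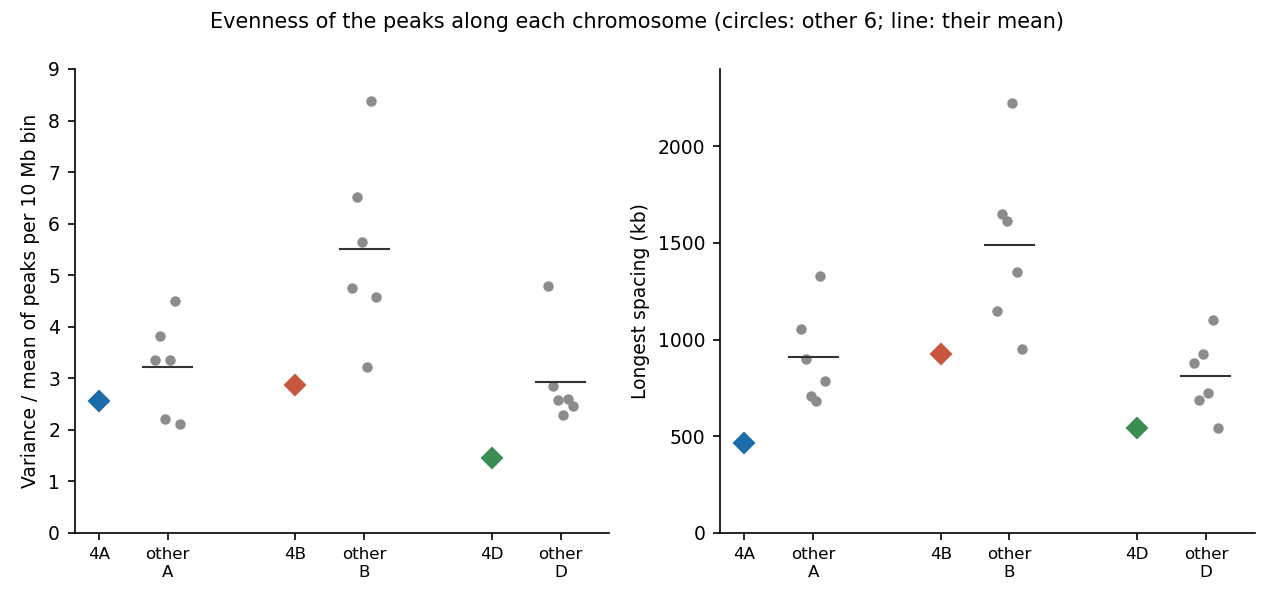
Variance over mean of the peak counts in full 10 Mb bins (left, y axis, no unit) and longest distance between neighbouring summits (right, y axis, kb) for 4A, 4B and 4D (diamonds) and the other 6 chromosomes of each subgenome (circles, with a line at their mean). 4B and 4D are lowest in the left panel and 4A and 4B in the right one, and 4A is measured up to the boundary.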

How the data were processed

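Trimming (Trimmomatic), alignment with Bowtie2 2.3.4 against Ensembl wheat release 1.0, a minimum mapping quality of 10 (SAMtools 1.9), duplicate removal (Picard) and peak calling (MACS2) were done by the authors, whose filter asked for more than 5 in fold enrichment and less than 1e-05 in FDR. The control library and any pooling are not given in the sources used here. The deposited list gives a score, the fold enrichment (a ratio) and −log10 p- and q-values per peak. Library depth was not used here, and the input libraries entered no comparison.

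Members were selected by position. Positions are printed counting from 1, width includes both end bases, spacing is the distance between neighbouring summits and density divides the count by the position of the last peak (4A: 600 Mb). The pileup and background were recovered from the deposited fold enrichment, in which MACS2 adds 1 to both, and p-value, for 100.0% of the peaks within 0.001. Probe sequences were read from the supplementary material of the study. Comparisons used an exact two-sided permutation test within subgenomes, tested on simulated data, with Benjamini-Hochberg adjustment and a threshold of 0.05. Alternatives varied the peak threshold, the 4A boundary, the chromosome ends, the bins and the chromosomes.

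The members, measures and tests were chosen with earlier results of these data known. The items named were, per chromosome, the 3 peaks of highest fold enrichment, the widest peak, the densest and sparsest bin, those of highest and lowest median fold enrichment and the longest spacing; other bins and spacings were chosen after their values were seen. A gene table of assembly 2.1 was not used for positions. Python 3.11.15, numpy 2.4.6, pandas 2.3.3, scipy 1.17.1 and matplotlib 3.10.9 were used.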

Additional observations from a re-analysis of the deposited data

How the results depend on the processing

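After adjustment, none of the 5 planned differences passed the exact permutation test under any alternative run, and several turned in sign. In the settings with 1 chromosome left out, the smallest possible p is 0.0204, so a difference on its own could not pass there. The share of strong peaks without 4D reached that p, at adjusted p = 0.102 in the exact permutation test. Stricter lists were tried, of strong peaks (fold enrichment over 10) and of peaks at a low FDR (under 1e-10). The density difference was -0.0349 peaks per Mb for strong peaks, -0.0842 at the low FDR and -0.283 without 4B. The width difference was -1.22 bp for strong peaks and -1.08 bp without 4B. In spacing, the difference was 30565 bp for strong peaks, whose spacings are far longer (764778 bp on group 4 against 734214 bp outside). It was 2439 bp at the low FDR (106870 against 104431 bp), 134.375 bp without 4B and 4.92 bp without 4D. The differences in fold enrichment and in the share of strong peaks kept their sign under all 7 alternatives each, the second ranging from -0.00636 to -0.417 points. The number of members was 1615 for strong peaks and 11375 at the low FDR. The mean profile correlation was 0.195 with 20 shares. The kept share did not pass in any of the 7 alternatives. It was -0.224 points with the whole of 4A and -0.0495 without the chromosome ends. It was -0.416 without 4A, -0.465 without 4B and -0.382 without 4D. With 1 chromosome left out, 49 choices remain and the exact test cannot go below p = 0.0204, so those 3 settings say nothing about stability. The stricter lists gave -0.0656 points for strong peaks and -0.250 at the low FDR. Both divide the stricter peaks by all numbered peaks (1.16% on group 4 against 1.22% outside, and 8.11% against 8.36%). They are therefore on another scale and do not retest the kept share. Unevenness and the longest spacing stayed negative and did not pass in any alternative (adjusted p from 0.0583 to 0.758 and from 0.272 to 0.758 in the exact permutation test). For these too, a difference on its own could not pass with 1 chromosome left out. The causes were not tested. Replicates could not be left out, and no paired analysis was possible because the list does not separate the libraries. Few tags under most peaks limit the values of single peaks.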
